A study of Homo sapiens with 42 samples.

Results

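SCC61 is a human head and neck squamous cell carcinoma line that is negative for HPV and carries a PIK3CA mutation according to the study. All samples whose titles name SCC61 were taken, which gave 6 of the 42 arrays of the series. The tested cells received 100 nM cetuximab for 24 h (3 arrays) and the control cells received none (3 arrays). In the labels, the total colony area of SCC61 after 7 days with cetuximab was 40.16% of its control, against 7.61% for SCC25 and 39.07% for SCC090 at the ends of the range of the other 7 lines of the series. The labels give this area once for each line, with no spread, and the order of SCC61 and SCC090 was not tested. For comparison, 5 other cancer lines had 3 cetuximab and 3 control arrays each: SCC25, SQ20B, SCC047, SCC090 and 93VU147T. The study names SCC25 and SQ20B as HPV-negative, while 93VU147T and SCC047 fall under its HPV-positive lines. The mean of the other 5 lines therefore mixes both kinds. All groups are cultured lines, and no source says whether the 3 arrays of a group came from separate cultures, so each p-value rests on the variation among these arrays alone, technical variation included. Levels are normalized log2 intensities of 1 probe set per gene, and a difference of 1 is a doubling of intensity.

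Cetuximab is an antibody that binds the extracellular part of the epidermal growth factor receptor (EGFR) and blocks its ligands. The receptor feeds the RAS-ERK cascade, whose output includes immediate early genes and its own feedback inhibitors, and the PI3K-AKT branch, which restrains FOXO factors and promotes growth and lipid synthesis. Squamous cells rely on EGFR for proliferation, and keratinocyte differentiation and interferon-induced genes are known to be held down by its activity.

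The 6 SCC61 arrays separated by treatment over the 19775 genes. Pairs of arrays within a group correlated at 0.995 to 0.997, and pairs across treatments at 0.971 to 0.978. Of the genes tested, 4819 (24.4%) were higher and 3911 (19.8%) were lower with cetuximab at an adjusted p below 0.05 in limma. The median change over all genes was -0.03. All 3 cetuximab arrays lay above all 3 controls for 27.9% of genes and below them for 26.0%. With array medians centred the split turned, to 3931 higher and 6709 lower genes, and the median gene then changed by -0.14. The called changes over 1 log2 unit numbered 848 upward and 321 downward. The difference between 3′ and 5′ control probes, a measure of RNA integrity, was 0.41, 0.34 and 0.25 for ACTB with cetuximab, against 0.20, 0.33 and 0.29 in controls (two-sided exact permutation p = 0.4). The labels carry 1 date for all 6 SCC61 arrays, but number the controls before the treated arrays, so that order of processing and treatment cannot be told apart. The squamous markers SFN, KRT5, PERP and KRT14 were among the brightest genes, each brighter than at least 99.3% of genes in control cells. The other markers CDH1, DSG3, KRT16 and EPCAM were brighter than 94.1%, 90.3%, 88.1% and 82.9% of genes. Leukocyte markers were dim in both groups, with list medians of 4.57 to 4.79 on cetuximab arrays against 4.89 to 4.93 on control arrays, and 7 of their 10 measured genes were called lower, LAPTM5 by the most (-1.28), and none higher. Without control replicate 2 the count of lower genes was 4. PTPRC, which defines leukocytes, averaged 3.92 with cetuximab and 4.19 in controls. Of the fibroblast markers 3 of 10 were higher and 2 lower (2 and 4 with array medians centred), and none was lower without cetuximab replicate 3. The collagen gene COL1A1, a fibroblast marker brighter than 82.7% of genes in controls, averaged 9.31 with cetuximab and 8.79 in controls (adjusted p = 0.00122), while COL1A2 averaged 5.21 with cetuximab and 5.28 in controls. Of the endothelial markers 1 of 8 was lower, and 2 without cetuximab replicate 3 or control replicate 2. The member called lower was PECAM1, brighter than 51.9% of genes in controls. It averaged 5.77 with cetuximab and 6.22 in controls (limma adjusted p = 0.000183). CDH5, an endothelial cadherin and a dim gene, averaged 3.63 with cetuximab and 3.72 in controls. The part of other cell types in the results was not tested.

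Transcripts that report ERK activity were lower in treated SCC61 cells. Of 20 such genes 17 were called lower and 1 higher, where 19.8% and 24.4% of all genes were. Their median change was -0.73. DUSP6, the phosphatase that switches off ERK, read 6.27, 6.53 and 6.30 on the cetuximab arrays, against 9.53, 9.34 and 9.62 on the control arrays. The groups were far apart, with a change of -3.13 ± 0.27 (SE, n = 3 arrays each), 8.73-fold lower (limma adjusted p = 3.51e-11). DUSP5, a nuclear ERK phosphatase, read 6.83, 6.83 and 6.93 with cetuximab and 9.33, 8.90 and 9.01 without (-2.21 ± 0.12). The ETS factor ETV5 fell by 1.58, and MYC, the growth-promoting transcription factor, fell by 1.09. MYC nonetheless stayed bright, at 11.03, 10.98 and 11.09 in treated cells against 12.23, 12.06 and 12.08 in controls. EGR1, an immediate early factor, read 7.07, 7.03 and 6.76 with cetuximab, against 9.46, 8.09 and 8.29 in controls, where replicate 1 stood more than 1 unit above the other two. The member called higher was the ephrin receptor EPHA4 (0.91), while the cyclin CCND1 changed by 0.45 ± 0.23 and did not pass (adjusted p = 0.114). With a minimum change of 0.5 demanded by the test, 8 of the 20 were called lower. The AP-1 site TGANTCA was found on either strand in none of the 12 RefSeq promoters held for this list (from 250 bases before to 50 after the start), against 7.76% of all promoters, which says only that these letters are not in these windows.

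Of 5 measured EGFR ligands 4 were called lower and none higher, where 19.8% and 24.4% of all genes were. AREG and EPGN were not analysed here. HBEGF, a membrane-anchored growth factor released by proteases, read 6.32, 6.58 and 6.32 in treated cells against 8.83, 8.78 and 8.62 in controls, 5.05-fold lower (adjusted p = 4.81e-13). Epiregulin (EREG) changed by -0.97 ± 0.11 and TGFA by -0.65 ± 0.13. EGF was called lower (-0.27) at a level near the bottom of the scale, and BTC (0.13 ± 0.09) was not called. Of the second probe set of EREG the change was 0.17, so its direction rests on the brighter probe set. With the probe set chosen by the ratio of deviations, and with the mean of probe sets, 1 ligand was called higher beside the 4 lower. Among 17 measured immediate early genes, 11 were lower and 1 was higher. ATF3 (-1.56) and CCN1 (-1.49), a matricellular protein, led the falls, the AP-1 subunit JUNB rose by 0.56, and FOS changed by 0.16 without a call (adjusted p = 0.41).

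**Figure D1:**
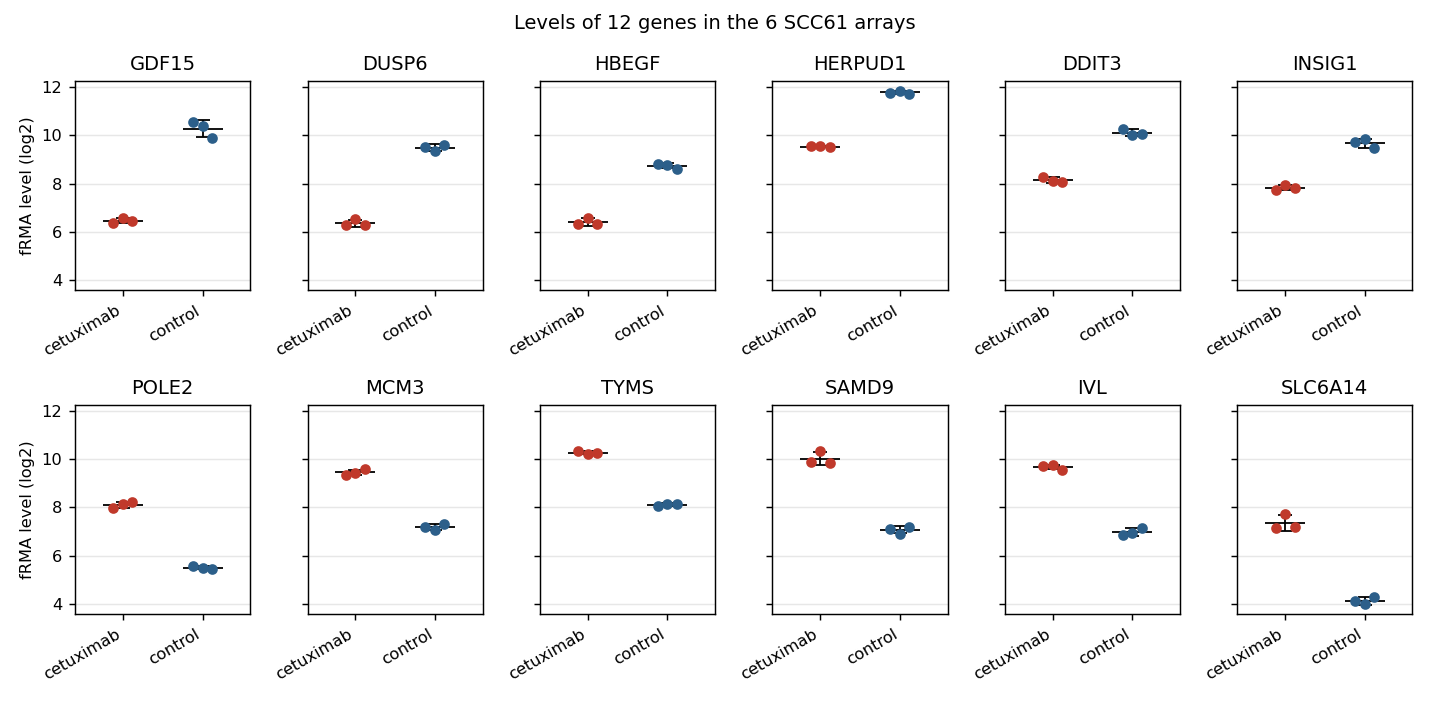
Level (log2, vertical axis) of 12 genes on each SCC61 array: red points are the 3 cetuximab arrays, blue points the 3 control arrays, and black bars the mean ± SD. No gene shown has overlapping groups: the upper row holds genes lower with cetuximab (GDF15 near 6.5 against 10.3) and the lower row genes higher with it (SLC6A14 near 7.35 against 4.13).

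Genes of DNA replication moved the other way. Of 41 measured genes for the replication machinery, 40 were higher with cetuximab, where 24.4% of all genes were, and none was lower. Their median change was 1.31. POLE2, a subunit of the leading-strand polymerase epsilon, read 7.97, 8.16 and 8.20 in treated cells against 5.57, 5.49 and 5.45 in controls. The 3 treated arrays thus lay over 2 units above every control, and the change was 2.60 ± 0.09 (6.08-fold, adjusted p = 2.16e-20). MCM10, which helps load the polymerases, read 7.43, 7.78 and 7.73 against 5.06, 5.02 and 5.10 (2.58 ± 0.11). MCM3, part of the MCM2-7 helicase, read 9.35, 9.42 and 9.58 against 7.18, 7.07 and 7.33 (2.26 ± 0.08). PCNA, the sliding clamp, read 11.32, 11.53 and 11.46 in treated cells against 9.57, 9.64 and 9.61 in controls. CDC7, the kinase that fires origins, rose by 2.41, whereas its regulatory subunit DBF4 changed by 0.05 ± 0.09 and was the one member not called (adjusted p = 0.675). The count stayed at 40 when any 1 of the 6 SCC61 arrays was left out. In bulk RNA a larger share of cells in S phase and more RNA per cell cannot be told apart.

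Promoters of these genes were searched for the E2F site, to which the factors that switch on S phase genes bind (TTTGGCGC, TTTCGCGC, TTTCCCGC or TTTGCCGC on either strand). RefSeq promoters from 250 bases before to 50 after the start (GRCh38.p14) were held for 35 of the 41 genes, and 18 of these (51.4%) had a match, against 3.33% of all 27305 promoters. In the deoxynucleotide list 2 of 8 promoters (25.0%) had a match. Shown are 3 replication genes with a match and rises over 2 log2 units, and TYMS from the deoxynucleotide list, with the matched letters in capitals. MCM10 and CDC7 rose more than MCM3 and GINS2 and are not shown.
POLE2, chr14:49688201-49688230, minus strand: ctgcggcggtgGCGCCAAAtcgcaaatatg
MCM3, chr6:52284898-52284927, minus strand: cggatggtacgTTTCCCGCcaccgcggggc
GINS2, chr16:85688967-85688996, minus strand: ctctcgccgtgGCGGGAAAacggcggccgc
TYMS, chr18:657603-657632, plus strand: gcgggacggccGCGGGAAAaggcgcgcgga
GINS2 encodes a subunit of the GINS complex that travels with the MCM helicase, and it read 9.07, 9.03 and 9.19 in treated cells against 7.03, 7.04 and 7.10 in controls (2.04 ± 0.09). A match describes the letters of the window and does not show that a factor binds there.

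Enzymes that make deoxynucleotides rose with the replication genes: all 8 measured were higher, where 24.4% of all genes were. Their median change was 1.18. TYMS, thymidylate synthase, read 10.34, 10.21 and 10.27 with cetuximab and 8.07, 8.13 and 8.16 without, 4.46-fold higher (adjusted p = 1.02e-19). TK1, the S phase thymidine kinase, rose by 1.58 and RRM2, the regulated subunit of ribonucleotide reductase, by 1.43. Of 19 DNA repair genes 17 were higher and none lower (median 0.78). BRCA1, which acts in homologous recombination, read 8.09, 8.26 and 8.15 against 5.68, 5.90 and 6.15, and its partner helicase BRIP1 rose by 2.20. Neither ATM (0.09) nor PALB2 (0.15) was called.

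Of 18 genes for the E2F family and the G1 to S transition, 12 were higher and 2 lower. Of all genes, 24.4% were higher and 19.8% lower. The pocket protein RBL1 (2.18), the repressor E2F8 (2.17) and the cyclin CCNE2 (2.14) led the rises. The 2 that fell were D-type cyclins, CCND2 (-0.71) and CCND3 (-0.27), and 1 was called without cetuximab replicate 2 or 3 or control replicate 1 or 2. RBL1 varied most among its treated arrays, at 5.44, 6.63 and 6.21 against 3.92, 3.75 and 4.08 in controls. Of the mitotic genes, 33 of 42 were higher and none lower, with a median of 0.44. KIF11, the spindle motor (1.65), MKI67, the proliferation antigen (1.63), and NDC80, a kinetochore protein (1.32), were the leading members. CDK1 (0.22) and TOP2A (0.15) were not called, and with a minimum change of 0.5 only 9 mitotic genes were, against 36 replication genes. The letters TTTGAA, the core of the cell cycle homology region of G2 genes, were present on either strand in 25 of 35 mitotic promoters (71.4%), against 15.4% of all promoters. MKI67 is shown as an example.
MKI67, chr10:128126453-128126482, minus strand: ttagcgccagaaTTTGAAtcttcgttttcg
Among 7 CDK inhibitors, 3 rose and 4 fell, and without cetuximab replicate 2 or control replicate 1 the count lower was 2. CDKN1C (p57) read 9.40, 9.21 and 9.25 with cetuximab against 7.86, 7.98 and 7.93 in controls. CDKN1A (p21) went the other way, at 9.23, 9.30 and 9.32 against 10.23, 10.34 and 10.12, and CDKN1B (p27) fell by 0.79.

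**Figure D2:**
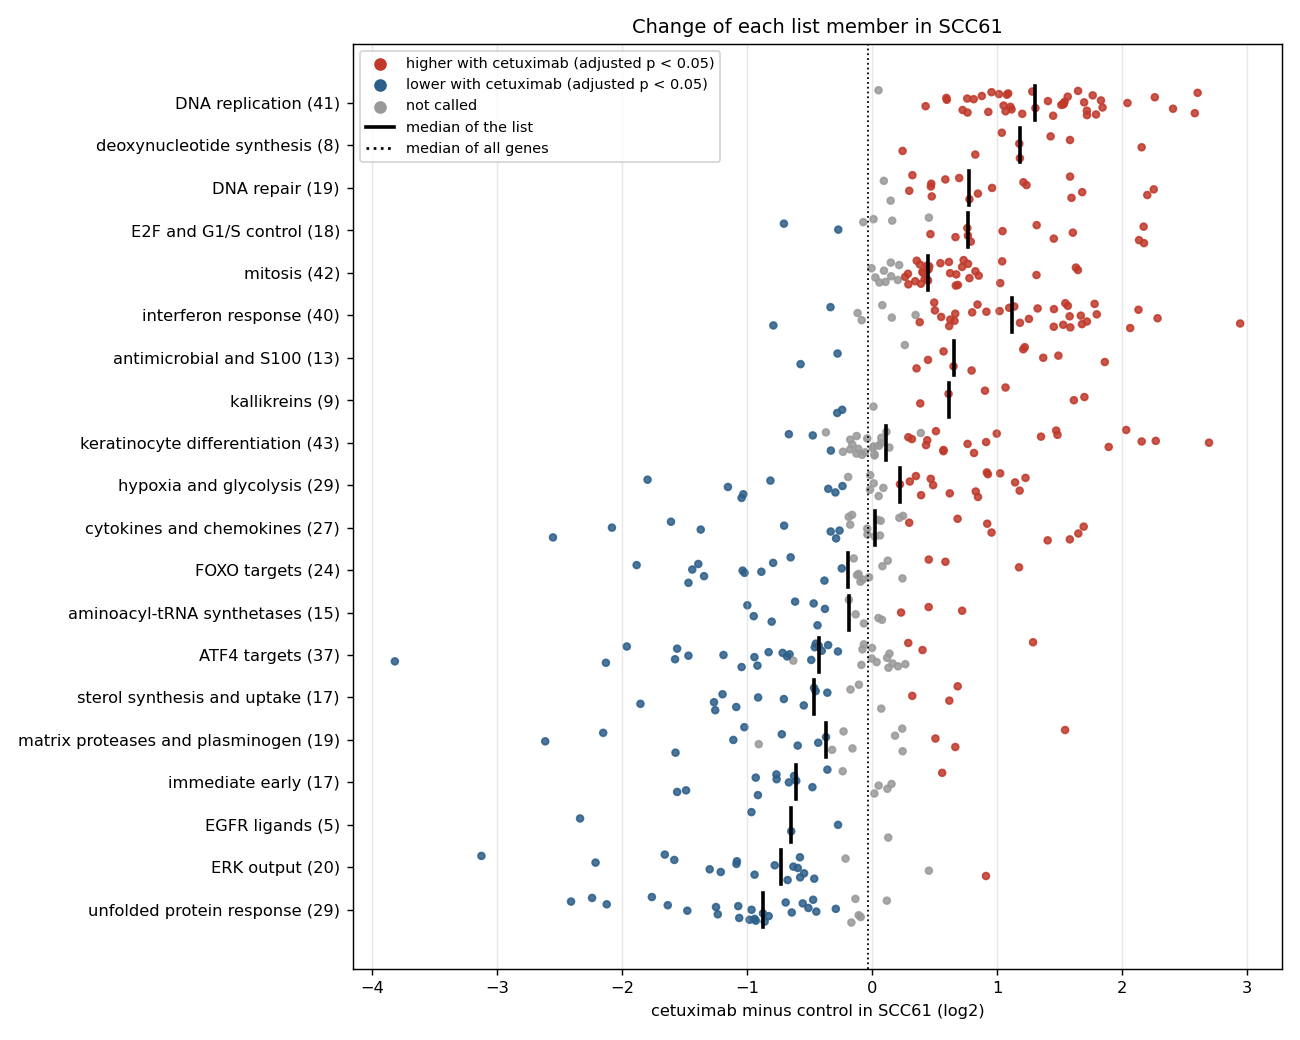
Change of every measured member of 20 gene lists in SCC61 (horizontal axis, cetuximab minus control, log2); red points were called higher, blue lower and grey not called, the short black bar is the median of the list and the dotted line the median of all genes (-0.03). The replication list lies wholly right of 0 with a median of 1.31, and the unfolded protein response list lies almost wholly left of it with a median of -0.87.

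Genes of the unfolded protein response, which enlarges the folding and disposal capacity of the endoplasmic reticulum when misfolded proteins gather there, were lower in treated cells. Of 29 measured genes, 24 were lower, where 19.8% of all genes were, and none was higher. HERPUD1, a factor of protein disposal from the reticulum, read 9.55, 9.55 and 9.52 with cetuximab against 11.75, 11.86 and 11.73 without. Its arrays scarcely varied within a group, and the change was -2.24 ± 0.11 (4.73-fold, adjusted p = 1.8e-16). DNAJB9, a co-chaperone, read 7.51, 7.71 and 7.49 against 9.96, 10.02 and 9.94 in controls (-2.41 ± 0.09). HSPA5, the main chaperone of the compartment, read 11.60, 11.80 and 11.46 in treated cells, against 13.08, 13.13 and 13.08 in controls, where it was among the brightest transcripts. HSP90B1, the HSP90 of the reticulum, read 9.26, 9.88 and 9.26 against 11.66, 11.70 and 11.41, with treated replicate 2 above its 2 partners. XBP1, whose spliced form drives the response, fell by 0.93, while the sensor ATF6 changed by 0.12 ± 0.06 and was not called (adjusted p = 0.136). The count was 24 or more under all settings in which no minimum change was asked, and 17 with a minimum of 0.5.

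The endoplasmic reticulum stress element consists of CCAAT and CCACG spaced by 9 free bases. It was found on either strand in 6 of 25 promoters of this list (24.0%), and in 22 of all 27305 (0.0806%). Windows of 3 members with a match are shown because so few promoters of the genome carry the element in this form.
HSP90B1, chr12:103930211-103930240, plus strand: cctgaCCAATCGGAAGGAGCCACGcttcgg
HSPA5, chr9:125241385-125241414, minus strand: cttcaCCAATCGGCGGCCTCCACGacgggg
XBP1, chr22:28800597-28800626, minus strand: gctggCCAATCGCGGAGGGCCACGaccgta

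The amino acid branch of the stress response runs through the factor ATF4. In a list of 37 measured genes, its targets with ATF4 itself, 21 were lower and 3 higher. Of all genes, 19.8% were lower and 24.4% higher. GDF15, a circulating stress cytokine, had the largest fall of any gene. It read 6.36, 6.56 and 6.46 in treated cells against 10.56, 10.40 and 9.88 in controls, 14.1-fold lower (-3.82 ± 0.16, adjusted p = 3.39e-18). All 3 of its probe sets fell, between -3.82 and -0.26. DDIT3 (CHOP), a pro-apoptotic factor, read 8.28, 8.10 and 8.09 against 10.28, 10.03 and 10.04. PPP1R15A, which restores translation after stress, fell by 2.13 and the pseudokinase TRIB3 by 1.58. The ATF4 transcript itself read 11.02, 11.07 and 11.09 against 12.27, 12.29 and 12.18 (-1.19 ± 0.10). Of the serine synthesis enzymes in the list, PSPH rose by 1.29, PHGDH fell by 0.46 and PSAT1 (0.14) was not called. Among 15 aminoacyl-tRNA synthetases, which load amino acids onto tRNAs, 7 were lower and 3 higher, with AARS1 (-0.95) among those that fell and HARS1 (0.72) among those that rose. The C/EBP-ATF response element TGATGNAA was matched on either strand in 6 of 31 promoters of the ATF4 targets (19.4%) and in 5 of 12 of the synthetases (41.7%), against 3.67% of all promoters. ASNS, asparagine synthetase, is shown because its promoter holds the element close to the start and it was lower here (-0.92).
ASNS, chr7:97872458-97872487, minus strand: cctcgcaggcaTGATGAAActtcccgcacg

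Sterol synthesis genes fell in part. Of 17 measured, 11 were lower and 3 higher, where 19.8% and 24.4% of all genes were. INSIG1, which holds the SREBP factors back when sterols are plentiful, read 7.72, 7.94 and 7.84 in treated cells against 9.74, 9.84 and 9.48 in controls (-1.85 ± 0.13). MSMO1 fell by 1.27, the sterol carrier STARD4 by 1.26 and IDI1 by 1.20, although 2 of the 4 IDI1 probe sets pointed upward. The members that rose were FDPS (0.62), PMVK (0.68) and NSDHL (0.32), the last with a second probe set at -0.061, and LSS (0.07) was not called. ABCG1, an exporter of cholesterol, was lower as well, at 5.65, 5.42 and 5.46 against 7.42, 7.78 and 8.02 in controls. Of 10 fatty acid synthesis genes 5 were lower, led by the desaturase SCD (-1.43), and the elongase ELOVL6 rose by 0.87. Without cetuximab replicate 1 or control replicate 2 the count of lower fatty acid genes was 3. The sterol response element TCACNCCAC was matched on either strand in 1 of 16 promoters of the sterol list (6.25%), against 1.15% of all promoters.

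Interferon-stimulated genes, which restrict viral growth, were mostly higher. Of 40 measured, 33 were higher and 2 lower, where 24.4% and 19.8% of all genes were. Their median change was 1.12. SAMD9, a restriction factor, read 9.87, 10.35 and 9.85 with cetuximab and 7.12, 6.91 and 7.20 without, 7.70-fold higher (adjusted p = 3.02e-17). Its neighbour SAMD9L rose by 2.28 and XAF1, an apoptosis-related member, by 2.07. IFI27 read 8.82, 8.67 and 8.68 against 6.28, 5.96 and 7.53 in controls, so that the control arrays varied by more than 1 unit but stayed below every treated array. ISG15, the ubiquitin-like modifier, read 11.15, 10.64 and 10.94 against 9.86, 9.50 and 9.39. The family was not uniform: IFIT2 was lower, at 7.87, 8.17 and 7.82 against 8.91, 8.72 and 8.60, and IFIT1 changed by -0.08 ± 0.19 (adjusted p = 0.759). SP100, the other member called lower (-0.33), rose on 4 of its 6 probe sets, by up to 1.20. The interferon-stimulated response element, GAAA and GAAA around 2 free bases, was found on either strand in 20 of 33 promoters (60.6%), against 3.65% of all promoters, and windows of 3 members with a match are shown.
SAMD9, chr7:93118096-93118125, minus strand: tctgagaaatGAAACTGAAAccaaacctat
IFI27, chr14:94110618-94110647, plus strand: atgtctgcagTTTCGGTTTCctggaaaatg
IFI44L, chr1:78620274-78620303, plus strand: tcctagtgagGAAAAAGAAAgttagtggca

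Genes of the upper layers of squamous epithelium rose selectively. Among 43 keratinocyte differentiation genes, 19 were higher and 3 lower, and 21 were not called. Of all genes, 24.4% were higher and 19.8% lower. Involucrin (IVL), a scaffold of the cornified envelope, read 9.71, 9.76 and 9.57 in treated cells against 6.86, 6.92 and 7.16 in controls, 6.48-fold higher (adjusted p = 1.1e-15). SPRR3, another envelope precursor, rose by 2.27, and TGM1, the enzyme that crosslinks them, by 1.89. The mucosal keratins KRT4 (2.16) and KRT13 (2.03) rose, whereas the epidermal keratin KRT10 fell by 0.47. KRT1 (0.14), LORICRIN (-0.18) and FLG (0.06), late epidermal genes, were not called. Of 9 kallikreins, the proteases that shed surface cells, 6 were higher, led by KLK10 (1.70) and KLK5 (1.61), and 2 were lower, but 1 or none without any 1 array other than control replicate 2. Among 13 antimicrobial and S100 genes, 10 were higher and 2 lower, the second count being 1 or 0 without any 1 array other than cetuximab replicate 1. S100A7 (psoriasin) read 8.73, 8.47 and 8.20 against 6.54, 6.46 and 6.81. S100A8, a calprotectin subunit, was already bright and rose to 13.02, 12.90 and 12.78 with cetuximab, against 11.46, 11.27 and 11.50 in controls.

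Cytokines moved in both directions. Of 27 measured, 8 were higher and 8 lower, shares not far from the 24.4% and 19.8% of all genes, and without control replicate 3 only 5 were lower. The neutrophil-attracting chemokines CXCL1 (1.69), CXCL2 (1.65), CXCL3 (1.58) and CXCL8 (0.92) rose, as did CCL20 (1.40). CXCL1 read 8.34, 8.37 and 8.12 in treated cells against 6.60, 6.44 and 6.70 in controls. IL24, a cytokine of the IL-10 family, read 4.76, 4.82 and 5.05 against 7.46, 7.16 and 7.66, and IL1A (-2.08) and IL1B (-1.61), the main interleukin 1 agonists and both bright genes, were lower. MMP1, the interstitial collagenase, read 6.63, 6.15 and 6.52 with cetuximab against 8.87, 8.74 and 9.54 without. The urokinase gene PLAU read 8.88, 8.89 and 8.73 against 11.13, 10.97 and 10.87. Neither gene had overlapping groups. In its list of matrix proteases and plasminogen factors, 9 of 19 were lower and 3 were higher, among them MMP7 (1.54).

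In the PI3K branch, which is mutated in this line, 5 of 19 measured components were higher and 6 lower, where 24.4% and 19.8% of all genes were. IRS2, an insulin receptor adaptor, read 9.49, 9.44 and 9.58 in treated cells against 11.37, 11.42 and 11.37 in controls. RICTOR, the scaffold of mTOR complex 2, read 8.95, 9.23 and 8.96 against 10.35, 10.38 and 10.37. AKT2 rose by 0.67, but 4 of its 7 probe sets pointed downward. With quantile normalization 2 components were higher and 10 lower, and with array medians centred 3 and 11, so the balance of this list depends on the scaling. Without cetuximab replicate 1 the count higher was 3. FOXO target genes are restrained by AKT. In their list of 24, which also holds FOXO1, FOXO3 and FOXO4 themselves, 12 were lower and 3 higher. Among them TXNIP (-1.44), KLHL24 (-1.47) and the ubiquitin ligase FBXO32 (-1.39) were lower, and CITED2 (1.18) and ERBB3 (0.59) higher. Among 29 hypoxia and glycolysis genes, 15 were higher and 8 lower. The glycolytic enzymes PGK1 (1.23), TPI1 (1.18) and GPI (1.02) rose together, while the glucose transporter SLC2A1 fell by 1.03. HK2, the first enzyme of the path, was lower on its brightest probe set (-1.80) and higher on the other two, by up to 0.92.

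The receptor itself was not called. EGFR read 11.77, 11.83 and 11.72 with cetuximab against 11.95, 12.05 and 12.13 without (-0.27 ± 0.14, adjusted p = 0.12). Its 9 probe sets ranged between -1.58 and 1.24, and 7 of them fell. Of 16 receptor tyrosine kinases, 4 were higher and 3 lower, shares near the 24.4% and 19.8% of all genes, and with array medians centred 4 and 5. Only 1 was lower without cetuximab replicate 2 or control replicate 2. FGFR3 read 9.32, 9.19 and 9.15 in treated cells against 7.47, 7.44 and 7.49 in controls, 3.37-fold higher, and MST1R, the receptor for macrophage-stimulating protein, rose by 1.14. The EGFR relatives ERBB3 (0.59) and ERBB2 (0.32) were modestly higher. TFAP2A, which encodes the factor AP-2alpha that the study followed, read 10.18, 10.25 and 10.24 against 11.27, 11.37 and 11.39 (-1.12 ± 0.10, adjusted p = 4.27e-11). The study took AP-2alpha targets from the TRANSFAC database, sorted them by changes in inhibitor-treated HaCaT cells, and then examined them in these cancer lines. Of the 9 measured targets that it named, 5 were lower, with VEGFA (-1.04) first, and ERBB2 alone was higher. The AP-2 site GCCNNNGGC was matched on either strand in 4 of 7 promoters of these targets (57.1%), against 23.0% of all promoters.

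Regulators of cell death moved in both directions, as did all genes, of which 24.4% were higher and 19.8% lower. Of 22 BCL2 family members and death receptors, 5 were higher and 7 lower, and with array medians centred 4 and 11. TNFSF10 (TRAIL), a death ligand, rose by 1.79, with all 3 probe sets upward, and the pore-forming BAX rose by 1.15. BCL2L1 (BCL-XL), which guards mitochondria, read 9.17, 9.06 and 9.24 in treated cells against 10.30, 10.36 and 10.33 in controls, and the BH3-only genes PMAIP1 (-1.01) and BCL2L11 (-0.65) fell too. Among 18 measured p53 targets 4 were higher and 7 lower, with TP53I3 (1.49) and GADD45A (-1.04) next to GDF15 at the ends. Of 19 targets of NRF2, the factor that responds to oxidants, 8 were lower and 5 higher. TXNRD1, thioredoxin reductase, read 10.75, 10.83 and 10.79 against 12.16, 12.17 and 12.04, although its second probe set did not fall. The count of higher NRF2 targets was 3 without control replicate 3.

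Adhesion and signalling genes of the basal layer and of mesenchymal cells moved in both directions, as 24.4% of all genes were higher and 19.8% lower. Of 14 basal keratinocyte genes 6 were lower and 2 higher, with the laminin chain LAMB3 (-0.93) after NGFR, and 1 was higher without control replicate 1 or 2. Of 20 mesenchymal genes and markers of the epithelial to mesenchymal transition, 8 were lower, among them SPARC (-0.88) and vimentin (VIM, -0.68), and 6 were higher, among them LOX (0.95) and E-cadherin (CDH1, 0.64). In the TGF-beta and BMP list 9 of 22 were lower, led by TGFB1 (-1.25), and 5 higher, led by the inhibitory SMAD6 (1.51) and the BMP-responsive ID2 (1.13). The EGFR ligand TGFA was also counted in this list, among its lower members. Of 16 YAP and TEAD targets 7 were lower, CCN1 and CCN2 (-1.27) foremost, and 2 higher. The Notch target HEY1 (-1.05) and the ligand JAG1 (-0.99) fell, while the Wnt antagonist SFRP1 (1.36) and WNT5A (1.01) rose, and in their list of 23 the counts were 8 lower and 4 higher. The antigen presentation list had 5 of 15 higher, with the immunoproteasome subunit PSMB8 first (0.86), and 5 lower, with HLA-E first (-0.58). That count of lower genes was 3 without cetuximab replicate 2 or control replicate 2, and 2 without control replicate 1. Among 13 NF-kappaB feedback genes 5 were higher and 3 lower, of 23 ribosome biogenesis genes 12 were higher and 3 lower, and of 18 amino acid transporters 5 moved each way. MRTO4, a ribosome assembly factor (0.86), and SLC1A5, the glutamine carrier (-0.83), were examples. Without control replicate 1 the count of lower ribosome biogenesis genes was 1, and without cetuximab replicate 2 or control replicate 2 that of higher amino acid transporters was 3.

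The largest rise of all was that of SLC6A14, a transporter of neutral and basic amino acids. It read 7.15, 7.72 and 7.19 in treated cells against 4.10, 3.98 and 4.30 in controls, 9.36-fold higher (adjusted p = 4.26e-19). PRMT6, an arginine methyltransferase, read 7.13, 7.35 and 7.20 against 3.89, 4.08 and 4.30. The control levels of both lay near the lower end of the scale. NEFL, the light neurofilament (3.02), GAS1, a membrane protein of arrested cells (2.97), and IFT70B, of intraflagellar transport (2.89), followed. GAS1 had 1 of 3 probe sets without a rise (-0.03) and EPPK1, the plakin epiplakin (2.81), 2 of 5 that did not rise. TMPO-AS1 and PSMB8-AS1, antisense RNAs by the array annotation, rose by 2.91 and 2.87, but a second probe set of PSMB8-AS1 changed by 0.01. CAVIN2, a coat protein of caveolae (2.70), and TMT1A, a methyltransferase (2.68), completed the 12 largest rises with SAMD9 and IVL. Among the 12 largest falls, DBP, a clock-controlled factor, read 6.59, 6.34 and 6.38 against 8.82, 8.92 and 8.71. NGFR, the p75 neurotrophin receptor of basal cells, read 5.11, 5.06 and 5.09 against 7.36, 7.35 and 7.15. HAS3, a hyaluronan synthase, fell by 2.25 on 1 of its 2 probe sets and changed by 0.25 on the second.

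The change in SCC61 was then set against the mean change of the other 5 lines within the same model. It was higher for 4460 genes (22.6%) and lower for 3033 (15.3%). For 40 of the 41 replication genes the difference was called higher, and none lower. The median change of the list was 1.31 in SCC61, against -0.48 in SCC25, -0.54 in SQ20B, 0.30 in SCC047, -0.14 in SCC090 and -0.05 in 93VU147T. In SCC25 38 of the replication genes were called lower and in SQ20B 34, while in SCC047 24 were called higher. Of all 19775 genes, 1443 were lower in SCC25, 2948 lower in SQ20B and 3415 higher in SCC047. MCM3 thus changed by 2.26 in SCC61 and by -0.49, -0.67, 0.40, -0.16 and -0.30 in the others in the same order. For 24 of 29 unfolded protein response genes the difference was called lower and for none higher; their median change was -0.87 in SCC61 and between -0.12 and 0.16 in the other 5 lines. HERPUD1 differed by -2.22 ± 0.13 (adjusted p = 3.06e-15), its change in the others lying between -0.64 and 0.33. The same test called 12 of 17 sterol genes lower and 2 higher.

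ERK output did not follow that pattern. Its median change was -0.73 in SCC61 and between -1.11 and -0.31 in the other lines. The difference was called lower for 5 and higher for 4 of the 20 genes, where 15.3% and 22.6% of all genes were. DUSP6 changed by -3.13 in SCC61, inside the range of -4.56 to -0.72 of the others, and ETV5 differed by -0.65 without a call (adjusted p = 0.0609). EGR1 fell less in SCC61 than in the mean of the others, by a difference of 1.15 ± 0.29 (adjusted p = 0.00154). The ATF4 list changed by a median of -0.43 in SCC61, -0.64 in 93VU147T and between -0.24 and 0.10 elsewhere. Of its 37 differences 14 were called lower and 4 higher. Interferon genes rose in SCC61 by a median of 1.12, against 0.60 in SCC25, 0.41 in SQ20B, 0.98 in SCC047, 0.08 in SCC090 and 0.22 in 93VU147T, and the difference was called higher for 26 of 40 and lower for 5. FOXO targets changed by a median of -0.19 in SCC61, against 0.41 in SCC25, 0.53 in SQ20B, -0.31 in SCC047, 0.09 in SCC090 and -0.04 in 93VU147T. Of the 24, 13 were called lower and none higher in SCC047, and 10 lower and 5 higher in 93VU147T. Of all 19775 genes, 3750 were lower and 3415 higher in SCC047, and 3716 lower and 3129 higher in 93VU147T. FBXO32 changed by -1.39 in SCC61, against 1.61 in SCC25, 2.50 in SQ20B and -1.69 in SCC047. Of the 24 differences 13 were called lower and 3 higher, against 15.3% and 22.6% of all genes.

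**Figure D3:**
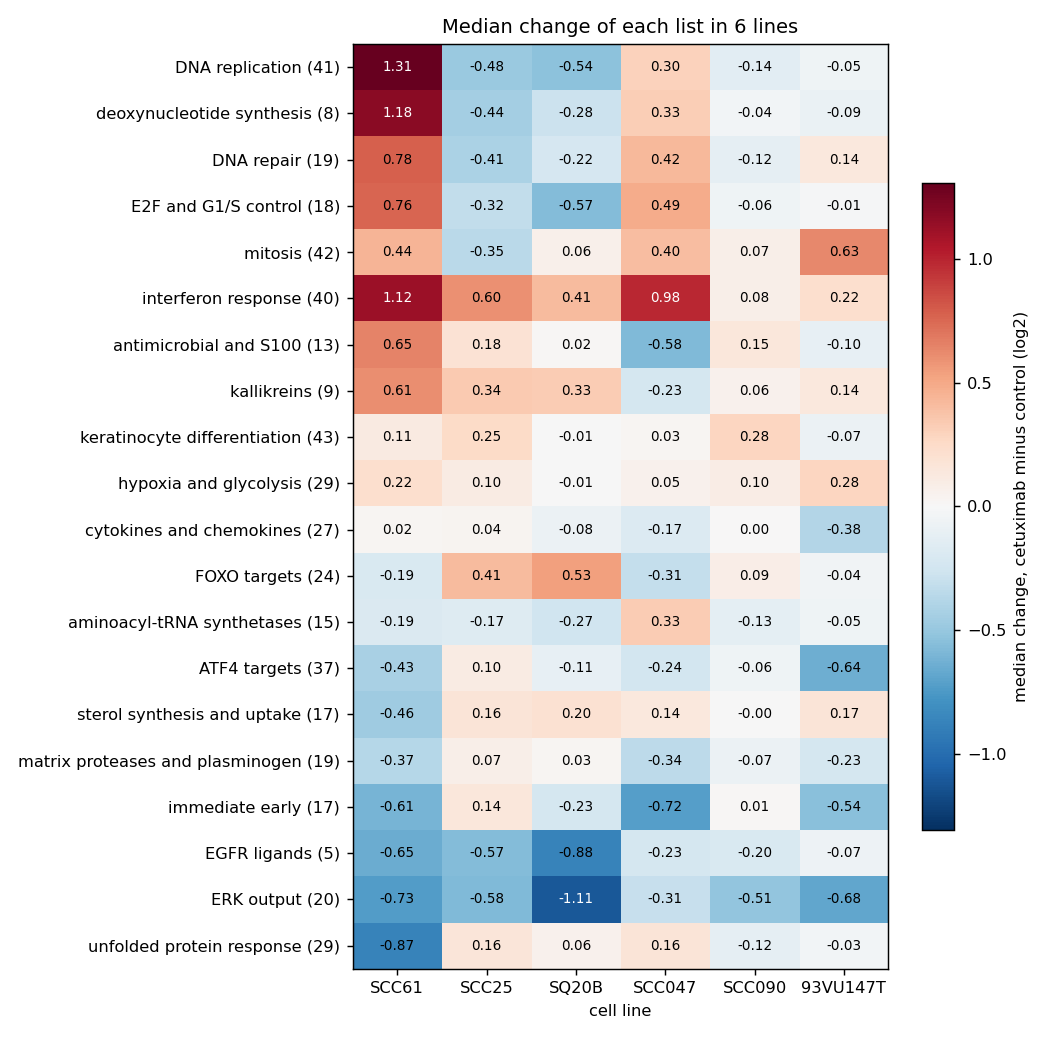
Median change of 20 gene lists (rows, with the number of measured genes) in SCC61 and 5 other lines (columns), cetuximab minus control in log2 as colour and printed value. SCC61 has 1.31 for DNA replication where SCC25 and SQ20B have -0.48 and -0.54, and -0.87 for the unfolded protein response where no other line goes below -0.12; ERK output is negative in all 6 lines.

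The levels behind these changes lay as follows. The cetuximab arrays of SCC61 had a median replication level of 8.88, 8.92 and 8.94, within the 8.21 to 9.24 of the means of the other cetuximab groups. Its control arrays had a median replication level of 7.6 each, lower than on any array of the other 5 lines, whose control groups averaged between 8.81 and 9.34. Against the mean of the other cetuximab groups, 14 replication genes were higher in SCC61 and 12 lower, where 24.3% and 25.0% of all genes were, and the median difference was 0.01. Against the mean of the other control groups, 40 of 41 were lower and 1 higher, where 30.5% and 23.8% of all genes were, and the median difference was -1.50. For the unfolded protein response the order was reversed: the cetuximab arrays of SCC61 read 9.2, 9.3 and 9.0, and its controls 9.96, 10.02 and 9.94, above the 8.63 to 9.08 of the other control groups. Here 27 of 29 genes were higher in SCC61 controls and 2 lower than the mean of the other control groups, while 7 were higher and 8 lower between the cetuximab groups. Both comparisons use arrays of the treatment contrast and are not independent of it. The sterol list read 8.45, 8.37 and 8.38 on the SCC61 cetuximab arrays and 9.39, 9.32 and 9.29 on its controls, whose mean lay within 0.1 of that of the SQ20B controls and below that of the SCC090 controls (9.76).

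**Figure D4:**
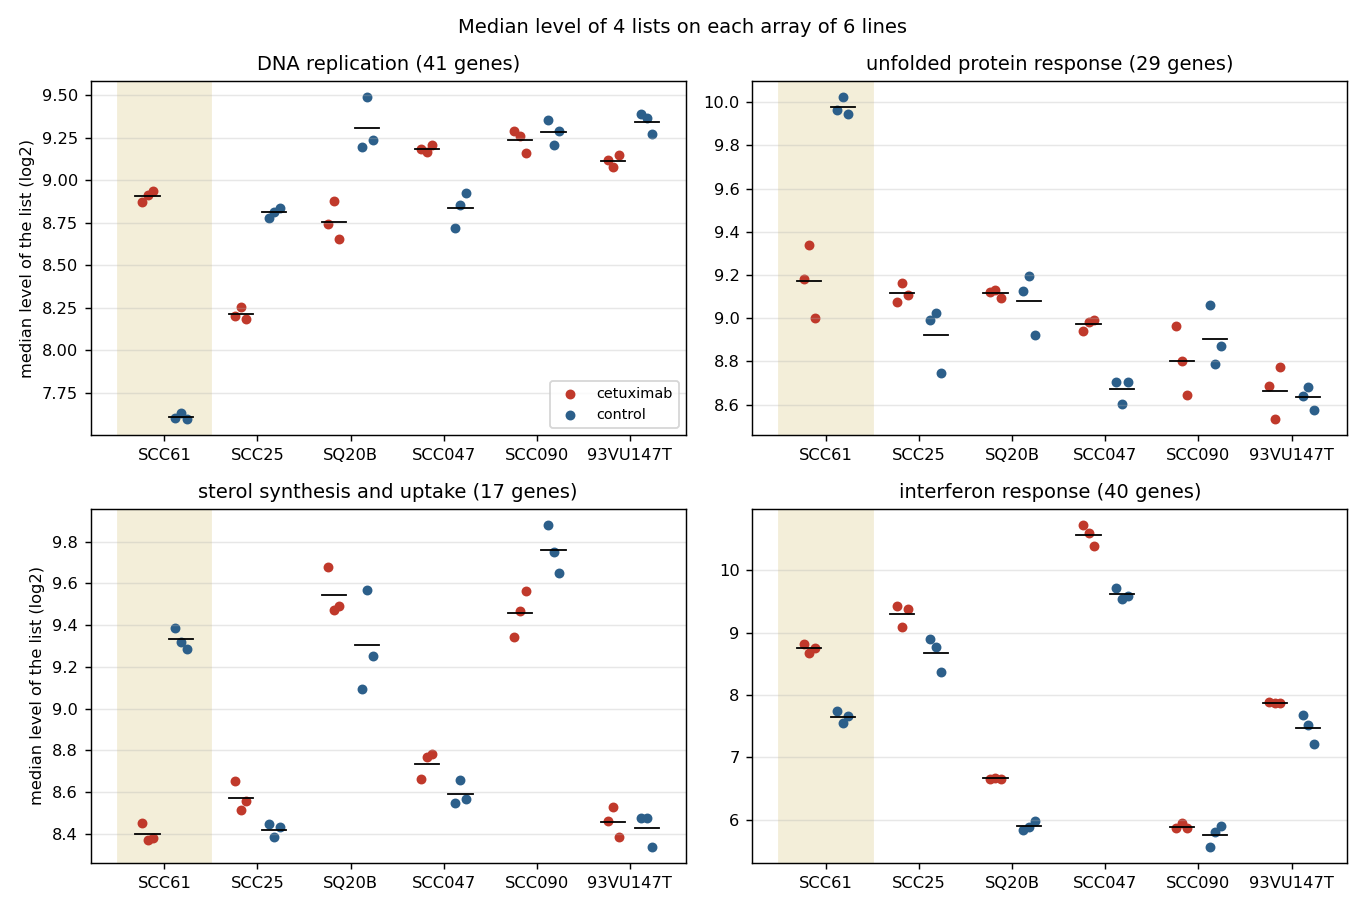
Median level (log2, vertical axis) of 4 gene lists on each of 36 arrays of 6 lines (horizontal axis, SCC61 shaded); red points are cetuximab arrays, blue points control arrays and black bars group means. For DNA replication the SCC61 cetuximab arrays lie at 8.88 to 8.94 and its controls near 7.6, below all other arrays; for the unfolded protein response the SCC61 controls lie at 9.94 to 10.02, above all other arrays.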

How the data were processed

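RNA of 42 samples was hybridised to Affymetrix hgu133plus2.0 arrays. The deposited values are log2 intensities of 54675 probe sets that the authors normalized with frozen RMA (fRMA); their methods also name pSVA for batches, and whether the deposited table holds that step is not given in the sources used here. Of the probe sets, 41091 had 1 gene symbol in the platform annotation, 1801 several and 11721 none, and only the first kind was used. Each of the 19775 genes was read from its brightest probe set (mean of the 42 arrays); 10523 genes had more than 1.

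A linear model with 12 group means was fitted to the 36 arrays of the 6 lines with both conditions in limma 3.58.1 (R 4.3.3), with 24 residual and 6.86 prior degrees of freedom. SCC1 (cetuximab only) and HaCaT (control only) stayed out. P-values were adjusted by Benjamini-Hochberg over all genes, and an adjusted p under 0.05 is a call. The script was tested on simulated data. Errors of changes are SE from the model. The number of arrays limits the precision, since array intensities carry no counts.

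The genes and the 42 gene lists were chosen with earlier results of these data known, and 62 of 864 list entries had no gene in the table and were not analysed here. Named were the 12 largest called rises and falls with groups that do not overlap, the 8 largest called differences from the other lines in each direction where SCC61 lay outside their range, up to 4 called members of each list in each direction, and genes the study names; further list members, and uncalled ones, were chosen after their values were seen. Lists are described by counts and medians beside those of all genes, with no set test. Promoter sequences are from RefSeq. Alternatives were another choice or a mean of probe sets, a filter on dim genes, centring, quantile normalization, a replicate block, all arrays, a variance trend, a minimum change, a batch term, SCC61 alone, and leaving out single arrays or lines. Figures were drawn in matplotlib 3.10.9 with Python 3.11.15.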

Additional observations from a re-analysis of the deposited data

Results flagged for a closer look

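The treatment change in SCC61 differed from the mean change of the other 5 lines for 4460 genes in the upward and 3033 in the downward direction by a test of the difference itself (limma, adjusted p below 0.05). These comparisons use 3 arrays per group, too few for a test of single arrays that stand apart.

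The differences largest upward, with the SCC61 change outside the range of the other lines, were those of SLC6A14 (3.18), PRMT6 (3.17), TMPO-AS1 (3.03), IL7R (2.85), POLE2 (2.77), MCM10 (2.76), GAS1 (2.65) and the chromatin remodeller HELLS (2.61). IL7R, an interleukin receptor subunit, read 7.73, 8.06 and 7.84 in treated SCC61 cells against 5.46, 5.76 and 6.13 in controls, and its change was below 0 in 4 of the other 5 lines.

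The differences largest downward were those of GDF15 (-3.33), IL24 (-2.68), DNAJB9 (-2.60), CREBRF (-2.54), DBP (-2.39), HERPUD1 (-2.22), MMP1 (-2.21) and HSP90B1 (-2.20). CREBRF, a regulator of the CREB3 stress factors, read 6.89, 7.29 and 6.91 against 9.20, 9.16 and 9.13 in SCC61 controls, and changed by 0.98 in SCC25 and 1.47 in SQ20B.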

How the results depend on the processing

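Demanding a change over 0.5 left 1431 genes higher and 584 lower in SCC61, 1205 and 552 for the difference from the other lines, and 8 ERK output genes lower. Centring array medians gave 6709 genes lower in SCC61 and 5669 lower for the difference. All other settings kept these counts within 1.5 times. Without 1 SCC61 array at a time counts were 4441 to 4644 higher and 3209 to 3647 lower, and 4072 to 4307 and 2729 to 2842 for the difference. The replicate numbers were not shown to pair the arrays, since same-numbered deviations correlated at 0.219, 0.123 and 0.0151 and cetuximab replicate 3 correlated best with control 1; the fit with the replicate block called 4884 genes higher and 3986 lower. With the probe set chosen by the ratio of deviations the direction turned for DST (-0.070), HK2 (0.92), NSDHL (-0.061), SP100 (1.20) and TNFAIP3 (-0.061), and with the mean of probe sets for SP100 (0.39); those genes have probe sets of opposite direction. Among single genes named and their settings, 255 calls were lost and 5 gained. In 4486 the call stayed the same, and genes uncalled in both fits were counted here whatever their direction. Of the list counts under all settings, 374 moved by over 1.5 times and 2902 did not. With only SCC25 and SQ20B as the other lines, 23 results for the difference moved and 79 did not.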
